A study of Mus musculus with 11 samples.

Results

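Alveolar macrophages (AMs) take up and break down surfactant lipid in the airspaces of the lung. Retinoid X receptors (RXRs) are nuclear receptors that bind DNA as dimers, often with PPARγ, which drives lipid handling in AMs, or with the liver X receptors, which sense oxysterols. The genes described here moved in libraries 1 to 3 of RXR-deficient mature AMs (mAMs) but mostly not in library 4. They stayed near the control level in RXR-deficient ImmAMs, the CD11b+ population of the same genotype. They were chosen by measured values. The means of log2 CPM, reads counted per gene and scaled to the size of the library, of *Cd11c Cre+ Rxrab fl/fl* mAM libraries 1 to 3 and of the 4 *Rxrab fl/fl* mAM libraries had to differ by at least 0.4 with no overlap of the libraries. The 3 *Cd11c Cre+ Rxrab fl/fl* ImmAM libraries had to lie within 0.3 of the same controls, and the mean had to reach 5 CPM in control mAMs or in RXR-deficient mAMs 1 to 3. Of 12932 genes in the table, 10036 reached that level and 129 met every condition, 52 higher and 77 lower in RXR-deficient mAMs 1 to 3. Over the 10036 genes, libraries 1 to 3 lay above all controls in 9.3% and below all controls in 12.7%.

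Cells were sorted from 9-week-old C57BL/6J mice, 40000 per library, from bronchoalveolar lavage by the methods of the study and from digested lung by the description of the series. All animals carried floxed alleles of both *Rxra* and *Rxrb*, and Cre recombinase, driven by the CD11c promoter, was present in the RXR-deficient groups only. mAMs were SiglecF+ CD11b- and ImmAMs SiglecF+ CD11b+. No ImmAMs of control mice were analysed here, so genotype and maturation cannot be told apart in the comparison of ImmAMs with control mAMs. RXR-deficient mAM library 4 was not used to choose the genes and is the library in which their direction was examined. The RNA-seq figure legends of the study give fewer than 4 mice for RXR-deficient mAMs, although 4 libraries of that group exist. The legends do not name the libraries used, so whether library 4 was the one left out is not stated. Library 4 is 1 library, and its controls are the same 4 libraries that served for the choice. The series is described as biological replicates, and no label names the animal behind a library.

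Reads counted per library ranged from 16659960 to 37873532. *Rxra* measured 310 to 380 CPM in control mAMs, 334 to 351 CPM in RXR-deficient mAMs 1 to 3, 419 CPM in library 4 and 283 to 305 CPM in ImmAMs. *Rxrb* measured 51.4 to 72.1, 39.3 to 52.8, 55.3 and 31.9 to 35.2 CPM in the same order. These values count reads over the whole gene and not the deleted part alone, so they do not check the deletion. The 20 markers of AMs were all in the table. Their sums were 31200 to 38240 CPM in control mAMs and 36209 to 41375 CPM in RXR-deficient mAMs 1 to 3. They were 35507 CPM in library 4 and 29978 to 31931 CPM in ImmAMs. Single markers did not all follow the sum. In control mAMs, libraries 1 to 3, library 4 and ImmAMs, *Siglecf* measured 244 to 264, 198 to 241, 198 and 19.3 to 19.7 CPM. *Itgax* measured 1520 to 1687, 1639 to 1903, 1937 and 1401 to 1453 CPM in the same order. *Itgam*, which encodes CD11b, lay between 3.52 and 9.95 CPM in the mAM libraries and between 168 and 174 CPM in ImmAMs. *Xist* and 4 Y-linked genes were detected in every library.

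The 52 genes that were higher and the 77 that were lower differed in the base composition of their transcripts. The choice did not name this property, but levels in the libraries followed it, as given below. Zinc finger genes, which encode proteins that bind DNA through repeated fingers, numbered 14 of the former, counting those named Zfp and a number and *Rsl1*. Zinc finger genes under other names were not counted, so this is no full count in either direction. The latter included 16 genes for receptors, ligands and signalling, 14 for RNA modification, protein handling and enzymes, 10 for mitochondrial proteins and 9 for ribosomes and their assembly. These kinds were assigned by hand after the values were seen and were not set against all genes. The 60 bases at the middle of the largest coding exon show the difference in base composition in some genes and not in others. Here these 60 bases are shown for 3 zinc finger genes that were higher and for 3 genes that were lower. All were picked after their values were seen, so kind of gene and direction cannot be told apart in them. The sequences are from GENCODE transcripts on GRCm38, with G and C in capitals.
Zfp595, chr13:67317125-67317184, minus strand: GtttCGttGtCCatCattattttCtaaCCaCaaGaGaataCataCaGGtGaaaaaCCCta
Zfp738, chr13:67670522-67670581, minus strand: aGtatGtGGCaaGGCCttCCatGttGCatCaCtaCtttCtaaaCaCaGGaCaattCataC
Zfp65, chr13:67708429-67708488, minus strand: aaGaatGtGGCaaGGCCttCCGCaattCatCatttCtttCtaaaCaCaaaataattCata
Crlf2, chr5:109554930-109554989, minus strand: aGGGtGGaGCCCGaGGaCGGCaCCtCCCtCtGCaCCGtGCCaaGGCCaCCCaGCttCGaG
Rrp9, chr9:106484254-106484313, plus strand: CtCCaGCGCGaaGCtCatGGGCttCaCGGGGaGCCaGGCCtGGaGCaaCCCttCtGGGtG
Fasn, chr11:120818939-120818998, minus strand: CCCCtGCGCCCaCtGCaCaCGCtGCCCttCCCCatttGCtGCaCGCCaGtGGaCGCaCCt
Of these 60 bases, 21 were G or C in *Zfp595*, 25 in *Zfp738* and 20 in *Zfp65*. The counts were 42 in *Crlf2*, 40 in *Rrp9* and 41 in *Fasn*. Other genes went the other way in this stretch. The higher genes *Slc18a2*, *Ace* and *Tcaf1* had 41, 39 and 34, and the lower genes *Akap1* and *Taf9b* had 29 each.

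Over RXR-deficient mAM libraries 1 to 3, the median difference from control mAMs was 0.51 on the log2 scale for the higher genes and -0.50 for the lower genes, which the choice fixed in size and direction. In ImmAMs the medians were 0.09 and -0.08. In library 4 they were -0.08 and 0.07, on the opposite side of the control mean in both sets. Library 4 lay on the same side as libraries 1 to 3 in 56 of the 129 genes, 23 of the 52 higher and 33 of the 77 lower. Among all 10036 genes at this level, library 4 lay above the control mean in 50.6% and below it in 49.4%.

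**Figure D1:**
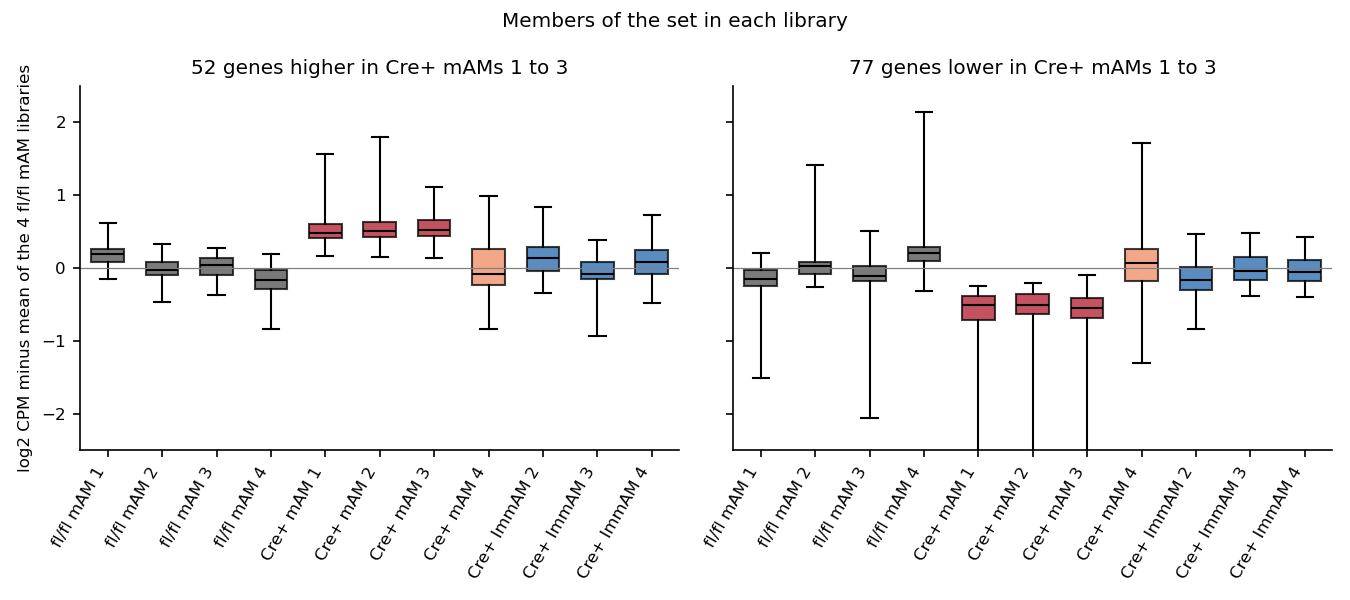
Log2 CPM of each gene minus the mean of the 4 control libraries, by library, for the 52 higher genes (left) and the 77 lower genes (right). Boxes span the quartiles around the median, whiskers the full range (4 values of 2 genes lie below the axis), fl/fl stands for *Rxrab fl/fl* and Cre+ for *Cd11c Cre+ Rxrab fl/fl*. The medians of Cre+ mAM 4 sit at -0.08 and 0.07, between those of the control libraries and apart from Cre+ mAM 1 to 3.

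Library 4 lay outside all 4 control libraries in the direction of libraries 1 to 3 in 36 genes, 15 of 52 higher and 21 of 77 lower. The shares over all genes at this level were 22.9% above and 19.5% below. It lay outside the controls in the other direction in 25 genes. It fell within the range of libraries 1 to 3, or beyond it, in 16. In limma, with library 4 as a group of 1 whose spread was taken from the other groups, 41 of 12932 genes (0.317%, with 0.224% higher and 0.0928% lower) passed an adjusted p of 0.05 and 1 of the 129, *Tcaf1*, was among them. Before adjustment, 18 of the 129 had a p under 0.05, 12 of them in the direction of libraries 1 to 3, beside 8.44% of all genes tested. The standard error of the library 4 difference was between 0.11 and 1.295, with a median of 0.22.

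A difference of at least 0.4 in the same direction as libraries 1 to 3 was seen in library 4 for 16 genes, 5 of 52 higher and 11 of 77 lower, against 5.2% and 4.8% of all genes. The higher ones were *Ace*, *Tcaf1*, *Kcne3*, *Thnsl1* and Gm47808. The lower ones included *Akap1*, *Htra3*, *Scmh1*, *Lrp5*, *Taf9b*, *Dnajc27*, *Ppfia4*, *Ankrd13b*, *Eme2* and Gm20400. In 12 genes library 4 differed by at least 0.4 in the other direction.

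**Figure D2:**
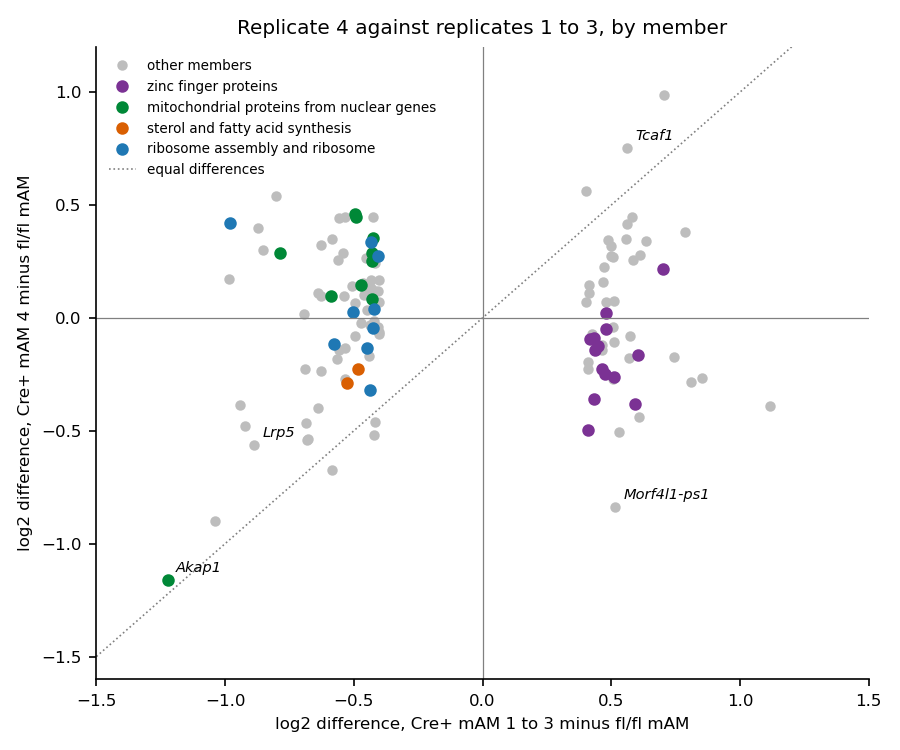
Log2 difference from control mAMs in Cre+ mAM 4 (vertical) against that in Cre+ mAM 1 to 3 (horizontal) for the genes of the set whose horizontal value lies between -1.5 and 1.5. The dotted line marks equal differences, and colours mark 4 groups of function. *Akap1* and *Lrp5* sit at the lower left, and 12 of 14 zinc finger genes sit below 0 on the vertical axis although all are above 0 on the horizontal one. All points share the same 4 control libraries.

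Genes of lipid synthesis were among the lower ones. *Fasn*, fatty acid synthase, measured 105 ± 5.69 CPM (SD, n = 4) in control mAMs and 73.1 ± 2.30 CPM (n = 3) in RXR-deficient mAMs 1 to 3. Library 4, at 86.0 CPM, lay below every control library, and ImmAMs, at 116 to 136 CPM, lay above every control library. *Mvk*, mevalonate kinase of the cholesterol pathway, measured 9.87 to 12.9 CPM in control mAMs, 7.45 to 8.84 CPM in libraries 1 to 3, 9.46 CPM in library 4 and 11.4 to 15.0 CPM in ImmAMs. Both genes were on the same side in library 4 as in libraries 1 to 3, by -0.29 and -0.23. They belong to a list of 42 measured genes of SREBP and lipid synthesis. In that list 1 gene was higher and 5 were lower in libraries 1 to 3 in limma, beside 4.84% of all 12889 genes called (2.25% higher, 2.59% lower), a comparison that the choice itself used. The list had a median of -0.22 in libraries 1 to 3, -0.20 in library 4 (0 of 42 called) and 0.47 in ImmAMs, where 24 genes were higher and 8 lower beside 48.1% of all genes called (22.8% higher, 25.3% lower).

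Genes for receptors, ligands and signalling proteins made up 16 of the 77 lower genes, and library 4 was on the same side in 11 of them. *Lrp5*, a co-receptor for Wnt ligands, measured 28.2, 27.0, 31.3 and 33.0 CPM in control mAMs, 13.8, 19.9 and 15.2 CPM in RXR-deficient mAMs 1 to 3, 20.1 CPM in library 4 and 21.5, 26.6 and 25.3 CPM in ImmAMs. All 4 RXR-deficient mAM libraries lay below all controls, and ImmAMs lay between the 2 groups. *Htra3*, a secreted serine protease that acts on TGF-β signalling, measured 6.46 to 10.3 CPM in controls, 3.21 to 4.96 CPM in libraries 1 to 3, 4.28 CPM in library 4 and 7.60 to 9.67 CPM in ImmAMs. *Ppfia4*, a scaffold of the liprin family, measured 23.6 to 28.6, 9.62 to 21.5, 18.4 and 24.8 to 30.7 CPM in that order. In these 3 genes library 4 had the side of libraries 1 to 3, by -0.56, -0.90 and -0.48, and none passed the adjusted threshold for library 4 (adjusted p of 0.38, 0.36 and 0.74 in limma).

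In other genes of this kind library 4 lay within or above the control range. *Crlf2*, a chain of the receptor for thymic stromal lymphopoietin, measured 73.2, 84.0, 71.3 and 95.1 CPM in control mAMs, 54.9, 55.9 and 50.1 CPM in libraries 1 to 3, 102 CPM in library 4 and 72.2, 80.7 and 82.6 CPM in ImmAMs. Libraries 1 to 3 lay close together below all other libraries, and library 4 was the highest of all 11. *Tgfb1*, the cytokine TGF-β1, on which AM development depends, measured 374 to 475 CPM in controls, 294 to 350 CPM in libraries 1 to 3, 418 CPM in library 4 and 349 to 380 CPM in ImmAMs. Library 4 lay within the control range, and ImmAMs lay from below that range to its lower end. *Wtip*, a LIM domain protein, measured 5.05 to 6.90 CPM in controls, 2.33 to 3.84 CPM in libraries 1 to 3 and 6.57 CPM in library 4. *Basp1*, a membrane-attached protein, had 13.96 to 19.2, 6.95 to 13.5 and 17.0 CPM, and *Lst1*, a transcript of leukocytes, had 8.07 to 10.4, 4.55 to 7.46 and 8.09 CPM. In all 3 library 4 fell inside the control range.

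The lists that hold these genes are read against 2.25% of all genes called higher and 2.59% called lower in libraries 1 to 3, in the comparison that the choice used. Of 37 genes of the TGF-β pathway, 1 was higher and 5 were lower in libraries 1 to 3, with a median of 0.06. Of 26 genes of the GM-CSF and IL-3 receptors and STAT5, 1 was higher and 5 were lower (median -0.05). Of 25 genes of MHC class I and peptide loading, 7 were lower (median -0.21), while the same list had a median of 0.08 in library 4. *H2-Q4*, an MHC class I gene, measured 32.5 to 45.7 CPM in controls, 23.01 to 32.4 CPM in libraries 1 to 3, 35.9 CPM in library 4 and 42.8 to 50.8 CPM in ImmAMs. Of 32 serum and activity response genes, 4 were lower (median -0.06). *Ier2*, an immediate early gene, measured 59.4 to 83.3, 44.2 to 58.4, 80.8 and 61.4 to 68.9 CPM in that order. In none of these 4 lists was a gene called in library 4.

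**Figure D3:**
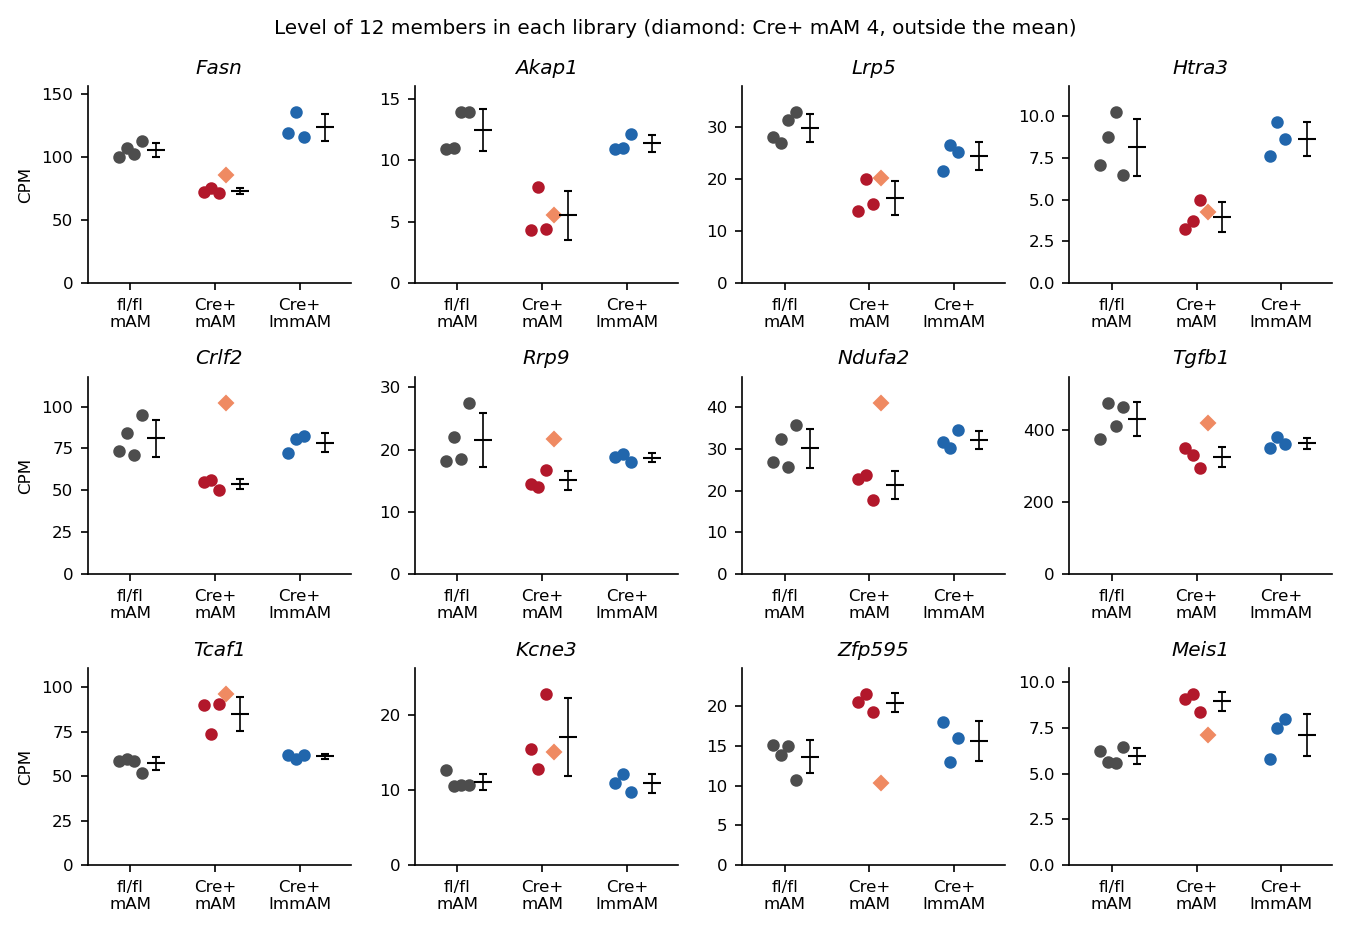
CPM of 12 genes of the set in each library, on linear axes that start at 0. Points are libraries, bars the mean and SD of the 4 *Rxrab fl/fl* mAM, the 3 Cre+ mAM (1 to 3) and the 3 Cre+ ImmAM libraries, and the diamond is Cre+ mAM 4. The diamond lies with the other Cre+ mAMs in *Akap1*, *Lrp5*, *Htra3* and *Tcaf1*. It lies outside the range of both mAM groups on the opposite side in *Crlf2* (102 CPM), *Zfp595* (10.4 CPM) and *Ndufa2*.

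Ribosome assembly was represented by *Wdr74*, *Pwp2*, *Tbl3*, *Rrp9*, *Rrp36* and *Nle1* from a list of 93 measured genes, in which 8 were lower in libraries 1 to 3 (median -0.13, and -0.03 in library 4), beside 2.59% of all genes called lower. *Pwp2* and *Tbl3*, of the complex that processes the small subunit RNA, measured 27.6 to 29.5 and 30.2 to 36.8 CPM in controls, and 19.7 to 21.7 and 21.6 to 27.5 CPM in libraries 1 to 3. Library 4 had 22.8 CPM of *Pwp2*, below all controls, and 30.5 CPM of *Tbl3*, within them. *Rrp9*, which binds the U3 small nucleolar RNA, had 18.2, 21.98, 18.4 and 27.5 CPM in controls, 14.5, 13.9 and 16.8 CPM in libraries 1 to 3 and 21.6 CPM in library 4. *Wdr74*, of the large subunit pathway, had 16.7 to 20.2, 13.1 to 14.4 and 18.9 CPM. Library 4 was thus inside the control range in 3 of these 4 genes. *Spata5l1*, an ATPase, had the largest difference of the group, -0.98 in libraries 1 to 3, with 0.42 in library 4.

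Of 10 lower genes that encode mitochondrial proteins in the nucleus, library 4 was on the opposite side in 9. *Ndufa2*, a subunit of respiratory complex I, measured 26.8, 32.3, 25.8 and 35.7 CPM in controls, 22.7, 23.8 and 17.6 CPM in libraries 1 to 3, 41.1 CPM in library 4 and 31.7, 30.3 and 34.5 CPM in ImmAMs. Library 4 was above all other libraries. *Ndufaf8*, an assembly factor of the same complex, measured 5.85 to 9.01 CPM in controls, 3.72 to 4.96 CPM in libraries 1 to 3 and 9.32 CPM in library 4. The exception was *Akap1*, which anchors protein kinase A at the outer mitochondrial membrane. It measured 10.9, 10.998, 13.9 and 13.9 CPM in controls, 4.32, 7.80 and 4.40 CPM in libraries 1 to 3, 5.52 CPM in library 4 and 10.9, 11.02 and 12.2 CPM in ImmAMs. All 4 RXR-deficient mAM libraries lay below every control, with differences of -1.22 and -1.16 and an adjusted p of 0.17 for library 4.

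Among the higher genes, *Tcaf1* stood apart, being the only one that passed the test in library 4. It encodes a factor that associates with the TRPM8 channel and lies at chr6:42668002-42710088 (GRCm38, minus strand). It measured 58.6, 59.6, 58.6 and 51.9 CPM in control mAMs, 89.9, 73.9 and 90.5 CPM in RXR-deficient mAMs 1 to 3, 96.2 CPM in library 4 and 62.0, 59.4 and 61.7 CPM in ImmAMs. The 4 RXR-deficient mAM libraries lay above all others. The difference was 0.56 in libraries 1 to 3 and 0.75 ± 0.12 (standard error) in library 4, with an adjusted p of 0.021 in limma.

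*Kcne3*, an accessory subunit of potassium channels, measured 12.7, 10.5, 10.6 and 10.6 CPM in controls, 15.5, 12.9 and 22.9 CPM in libraries 1 to 3, 15.1 CPM in library 4 and 9.69 to 12.2 CPM in ImmAMs. *Ace*, angiotensin-converting enzyme, measured 65.8 to 77.98, 79.2 to 111, 105 and 82.6 to 91.2 CPM in that order. Library 4 was above every control in both. ImmAMs were also above every control in *Ace*, by a mean of 0.29, just inside the limit. *Hmgn5*, which binds nucleosomes, measured 18.4 to 24.3, 32.9 to 35.6, 28.0 and 23.8 to 26.2 CPM, and *Meis1*, a homeobox factor, 5.57 to 6.46, 8.39 to 9.37, 7.12 and 5.81 to 8.01 CPM. In both library 4 lay between the controls and libraries 1 to 3. *Thnsl1*, related to threonine synthases, had 5.97 to 8.50 CPM in controls, 9.44 to 11.8 CPM in libraries 1 to 3 and 9.78 CPM in library 4.

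*Ear6*, a ribonuclease of the eosinophil-associated family, measured 3.31 to 5.45 CPM in controls, 6.16 to 7.34 CPM in libraries 1 to 3, 5.25 CPM in library 4 and 3.27 to 4.60 CPM in ImmAMs. The defining eosinophil genes *Epx*, *Prg2*, *Prg3*, *Ccr3* and *Il5ra* were not among the genes of the table. *Carf*, a calcium-responsive transcription factor, measured 7.46 to 10.2, 11.7 to 13.4, 6.02 and 8.73 to 11.8 CPM, with library 4 the lowest of all. *Atp2a1*, a calcium pump of the sarcoplasmic reticulum, had 2.63 to 4.04 CPM in controls, 4.59 to 5.46 CPM in libraries 1 to 3 and 3.28 CPM in library 4. *Slc18a2*, a vesicular monoamine transporter, had 3.32 to 4.03, 5.01 to 6.18 and 2.63 CPM, so that in both library 4 did not follow libraries 1 to 3.

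The 14 zinc finger genes (13 named Zfp and a number, and *Rsl1*) were higher by a median of 0.47 in libraries 1 to 3 and had a median of -0.15 in library 4, which was below the control mean in 12 of them. *Zfp595* measured 15.1, 13.8, 15.0 and 10.7 CPM in controls, 20.6, 21.6 and 19.2 CPM in libraries 1 to 3, 10.4 CPM in library 4 and 18.03, 13.01 and 15.9 CPM in ImmAMs. *Zfp738* had 28.9 to 35.1, 39.6 to 45.7, 24.3 and 34.9 to 40.2 CPM. In both genes library 4 was the lowest of all 11 libraries. *Zfp715* measured 34.2 to 44.6 CPM in controls, 45.3 to 54.3 CPM in libraries 1 to 3 and 27.1 CPM in library 4, and *Zfp65* measured 16.5 to 20.7, 22.1 to 26.7 and 17.2 CPM. *Zfp953* had 8.27 to 12.3, 14.5 to 17.3 and 9.05 CPM. *Zfp984* and *Zfp960*, with 37.9 to 59.1 and 5.37 to 7.78 CPM in controls and 63.0 to 68.3 and 9.90 to 10.7 CPM in libraries 1 to 3, share 50.7% and 81.7% of their 60-base windows with other genes, so that their counts are uncertain.

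Zinc finger genes outside the set were examined in the same way. Over all 330 measured genes named Zfp and a number, the median was 0.20 in libraries 1 to 3 (10 higher and 1 lower in limma, beside 2.25% and 2.59% of all genes), -0.08 in library 4 (0 called) and 0.17 in ImmAMs (76 higher and 23 lower, beside 22.8% and 25.3% of all genes). The letters ACTGGAGAGAAACC, the commonest word of 14 bases in the longest transcripts of these genes, lie in the linker between neighbouring fingers. They were found at least 3 times in the longest transcript of 60 genes at this level of expression. Of these 60, 58 were above the control mean in libraries 1 to 3, against 4823 of all 10036 genes, with a median of 0.39, and 4 belonged to the set. Their median was -0.14 in library 4 and 0.13 in ImmAMs, and their median GC content was 38.5%. In limma 2 of the 60 were called higher and 0 lower in libraries 1 to 3, beside 239 and 313 of the 10036 genes. Over all genes in the lowest decile of GC content (up to 40.9%), the medians were 0.16, 0.20 and 0.24 in libraries 1, 2 and 3. In library 4 that median was -0.13. Reads from repeats of this word can be shared between genes.

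The higher genes included 3 mitochondrially encoded transcripts, which also have low GC content. *mt-Nd2*, a complex I subunit encoded in mitochondria, measured 740 to 1193 CPM in controls, 1214 to 1509.7 CPM in libraries 1 to 3, 803 CPM in library 4 and 1029 to 1283 CPM in ImmAMs. The ribosomal RNAs *mt-Rnr1* and *mt-Rnr2* had 88.2 to 114 and 335 to 502 CPM in controls, 117 to 158 and 538 to 595 CPM in libraries 1 to 3, and 110 and 449 CPM in library 4. The 15 measured mitochondrially encoded genes had a median of 0.40 in libraries 1 to 3, of -0.24 in library 4 and of 0.74 in ImmAMs. In ImmAMs 9 were higher in limma, beside 22.8% of all genes. In libraries 1 to 3, the comparison that the choice used, limma called 0 of the 15, beside 2.25% of all genes called higher. An unadjusted p under 0.05 was met by 12. The share of all genes for that is not given here, so nothing is read from it. The medians of library 4 and of libraries 1 to 3 were of opposite sign. These 3 genes fell outside the rule for naming genes and were picked after their values were seen.

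Transcript GC content differed between the 2 directions. The higher genes had a median of 39.4% and the lower genes of 56.3%, beside 49.1% over all genes at this level. Of the 52 higher genes, 31 fell in the lowest decile of GC content and 10 in the next, and 3 lay above the median of all genes. Of the 76 lower genes with an annotated transcript, 30 fell in the highest decile and 18 in the next, and 71 lay above the median. The higher genes were also longer, with a median of 3773 bases against 1932 bases for the lower genes and 3428 bases overall. In the 300-base promoter windows of RefSeq on GRCm38.p6 the contrast was smaller, with median GC contents of 55.0%, 60.7% and 60.7% over 45 windows of higher genes, 82 of lower genes and 10035 of all genes.

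The libraries themselves differed in how levels followed GC content. In the highest decile of GC content minus the lowest, the median level against the control mean differed by -0.29, 0.08, -0.22 and 0.43 in control mAMs 1 to 4, and by -0.35, -0.40 and -0.49 in RXR-deficient mAMs 1 to 3. It differed by 0.24 in library 4 and by -0.28, 0.05 and -0.26 in ImmAMs 2 to 4. Libraries 1 to 3 had the most negative values of the 11, and library 4 and control library 4 the most positive. The genes of the set also differed between control libraries. The median of the higher genes was 0.19 in control library 1 and -0.16 in control library 4, and that of the lower genes -0.15 and 0.21.

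When the trend with GC content and then with length was taken out of each library, an alternative added after the data were seen, the median difference in libraries 1 to 3 became 0.33 for the higher and -0.35 for the lower genes. Library 4 then had medians of 0.08 and -0.06 and was on the side of libraries 1 to 3 in 84 of 128 genes. The share of all genes on each side after this correction is not given here. The genes were chosen for their distance from the same controls, so this count is not read as agreement. On the values so corrected, 59 genes met the conditions of the choice, 37 of them among the 129. In limma, 24 of 128 passed in libraries 1 to 3, beside 3.81% of all genes, against 51 of 129 without the correction, which the choice fixed in direction. With all 4 RXR-deficient mAM libraries as the group, 34 genes met the conditions, 33 of them among the 129.

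The genes that met the conditions both with all 4 libraries and after the correction numbered 16, 10 lower and 6 higher. The lower ones included *Fasn*, *Akap1*, *Ppfia4*, *Scmh1*, *Taf9b*, *Haus7*, *Dnajc27*, Gm46620 and Gm20400, and the higher ones *Tcaf1*, *Bmx*, *Hmgn5*, *Meis1*, *Thnsl1* and Gm47808. This group was formed after the values were seen and holds none of the zinc finger, mitochondrially encoded or ribosome assembly genes. The conditions act on GC content and on library 4, in which the zinc finger genes already differed. Nothing is therefore read from these absences. *Bmx*, a tyrosine kinase of the Tec family, measured 31.8 to 35.0 CPM in controls, 44.4 to 49.6 CPM in libraries 1 to 3, 40.2 CPM in library 4 and 28.9 to 33.5 CPM in ImmAMs.

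Some genes of the set are copies or unnamed models. Gm20458 shares 95.8% of its 60-base windows with *Dbndd2* and had 36, 182, 17 and 247 reads in control mAMs, none in RXR-deficient mAMs 1 to 3, 196 in library 4 and 31, 48 and 60 in ImmAMs. By the counts as assigned, and against a floor of 3 reads over libraries 1 to 3 together, it was at least 92.6-fold lower there. Reads shared with *Dbndd2* can be assigned to either gene, so the counts of Gm20458 and this bound are uncertain. The bound was 55.4-fold without control library 4, and 60.9- and 58.1-fold without RXR-deficient library 1 or 2. With the 92.6-fold bound the median of the lower genes remained -0.50. *Sap18b*, a copy of the co-repressor gene *Sap18* with 98.8% shared windows, measured 39.6 to 59.1 CPM in controls, 22.4 to 29.7 CPM in libraries 1 to 3 and 63.3 CPM in library 4. The pseudogene Morf4l1-ps1, with 92.0% of its windows in *Morf4l1*, had 38.3 to 57.0, 65.7 to 76.7 and 27.6 CPM. In all 3 library 4 lay beyond the control mean in the direction opposite to libraries 1 to 3. ENSMUSG00000095742, on an unplaced scaffold, had 19.5 to 43.5, 14.2 to 19.3 and 40.8 CPM. In all, 19 of the 128 genes with a transcript share at least 20% of their windows with another gene.

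For comparison, 566 further genes met the conditions of level, size and no overlap in libraries 1 to 3 but differed by 0.3 or more in ImmAMs. Their medians were 0.64 (277 higher) and -0.56 (289 lower) in libraries 1 to 3, 0.39 and -0.27 in library 4, and 1.11 and -0.98 in ImmAMs. The 129 genes had 0.51 and -0.50, -0.08 and 0.07, and 0.09 and -0.08. All of these values rest on the same 4 control libraries, and no test was made across genes, which share their libraries. The limit on ImmAMs fixed how near they lay to the controls, so nothing is read from the share of genes whose ImmAM libraries overlapped the control range, 120 of the 129 beside 46.5% of all genes. In limma 8 of the 129 passed in ImmAMs, among them *Fasn*, *Tbl3*, *Pwp2*, *Tgfb1* and *Ace*, beside 48.1% of all genes. The limit also kept this share low. Median transcript GC content in the 566 genes was 44.5% for the higher and 55.3% for the lower ones. In the 129 it was 39.4% and 56.3%, so a split in GC content by direction was not particular to the set.

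Other lists held no gene of the set, apart from *Rplp1*. In libraries 1 to 3, in which 2.25% of all genes were called higher and 2.59% lower, of 40 PPAR target genes 1 was higher and 11 lower, of 35 ATF4, serine and one-carbon genes 1 and 7, of 25 p53 targets 5 and 1 and of 8 MHC class II genes 1 was higher. Of 49 peroxisome genes 6 were lower and of 44 replication licensing genes 4 were lower. In library 4, 2 of the 40 PPAR target genes and 1 peroxisome gene were called lower, beside 0.0928% of all genes, and 1 of the p53 targets higher, beside 0.224%. Of 80 cytosolic ribosomal protein genes 1 was lower in libraries 1 to 3, and *Rplp1* measured 420 to 671 CPM in controls, 355 to 418 CPM in libraries 1 to 3 and 626 CPM in library 4. It shares 54.5% of its windows with other genes.

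Motifs of nuclear receptors were few in the promoter windows. The direct repeat DR1, 2 copies of AGGTCA with 1 base between them, is bound by RXR dimers with PPARs and was found on either strand with up to 2 mismatches in 0 of 37 higher and 2 of 60 lower genes (*Paqr7*, *Timm13*), beside 3.47% of 7906 genes. DR4, with 4 bases between the copies and bound by RXR with liver X receptors, was found on the same terms in 0 and 1 (*Bri3*), beside 2.54%. TCACNCCAC, bound by SREBPs, was found without mismatch in 0 and 3 (*Ampd2*, *Htra3*, *Paqr7*), beside 1.35%. These are matches of letters in 300 bases around the start and not sites.

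Markers of other cells moved with the groups, and their part in these results was not tested. Sums over 7 of 12 neutrophil markers were 55.8 to 63.5 CPM in control mAMs, 113 to 341 CPM in RXR-deficient mAMs 1 to 3, 157 CPM in library 4 and 904 to 977 CPM in ImmAMs, while *Ly6g*, *Mpo* and *Elane* were not in the table. Sums over 9 of 12 interstitial macrophage markers were 21.4 to 29.4, 45.5 to 98.0, 70.0 and 2958 to 3050 CPM. Dendritic cell markers (8 of 12) gave 35.2 to 42.0, 42.5 to 55.1, 53.8 and 110 to 117 CPM. Monocyte markers (9 of 12) gave 14718 to 20062, 19135 to 25635, 19366 and 27656 to 28661 CPM. For these 4 lists library 4 lay inside the range of libraries 1 to 3 and above every control or, for monocytes, among them. The monocyte list shares *Chil3* with the AM list.

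The other marker lists gave the following sums. Eosinophil markers (2 of 7) gave 249 to 269 CPM in controls, 205 to 248 CPM in libraries 1 to 3 and 203 CPM in library 4. This list shares *Siglecf* with the AM list, and *Siglecf* alone measured 244 to 264 CPM in controls. B cell (3 of 10), T cell (1 of 12) and erythroid (3 of 7) markers were at 9.55 CPM or less in every library. Alveolar type 2 markers (4 of 11) gave 167 to 178, 152 to 168 and 175 CPM, club and ciliated cell markers (4 of 10) 132 to 205, 166 to 221 and 250 CPM, endothelial markers (3 of 11) 462 to 492, 490 to 576 and 596 CPM, and sex-linked genes (5 of 5) 350 to 632, 304 to 571 and 327 CPM. The endothelial list shares *Car4* with the AM list, and *Pecam1*, *Cdh5* and *Kdr* were not in the table. No NK cell or fibroblast marker was in the table. In bulk RNA, fewer cells of a kind and less RNA per cell cannot be told apart.

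The limits of the choice separated genes with close values. Just inside 0.4 were *Ace*, *Chpf2* and BC029722 (0.40001, 0.4003 and 0.402), and just outside *Rex1bd*, *Get4* and *Ndufs7* (0.397, 0.396 and 0.394). At the ImmAM limit, *Tbl3*, *Ccdc191* and *Ace* (0.298, 0.296 and 0.294) were inside and *Zfp846*, *Tusc1* and *Sirt5* (0.3002, 0.302 and 0.303) outside. At the level of 5 CPM, Gm32856, *Atp2a1* and Gm20458 (5.03, 5.17 and 5.28 CPM) were inside and Gm10719, *Rhbdf1* and *Kyat1* (4.95, 4.94 and 4.87 CPM) outside.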

How the data were processed

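RNA-seq was made from 11 libraries of sorted AMs. According to the methods, the authors trimmed single-end reads of 60 bases with Cutadapt, quantified them with RSEM (1.3.1 per the labels) on the GRCm38 transcriptome, scaled the estimated counts by TMM with limma and dropped every gene that did not reach 1 CPM in 3 samples. The deposited values are CPM, each equal to whole reads plus 0.5 times a fixed step per library. Dividing by the step gave whole reads within 0.01 for 100% of values, and 0 columns of other samples were left out.

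Log2 of the deposited CPM was used with no pseudocount. Group means were fitted in limma 3.58.1 (R 4.3.3, variance trend, two-sided, Benjamini-Hochberg, adjusted p under 0.05), for libraries 1 to 3 and ImmAMs over 10 libraries and 12889 genes, and for library 4 over 11 libraries and 12932 genes. The fits were tested on simulated data. edgeR 4.0.16, DESeq2 1.42.0 and limma-voom on the recovered reads, other scalings, filters, pseudocounts and groups, and each library left out were alternatives. GC content and length are those of the longest transcript in GENCODE vM21, found for 12919 of 12932 genes. Their trends were fitted per library by lowess (span 0.3, 3 iterations).

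Named genes are the 12 largest rises and 12 largest falls among symbols that are not model names, at most 4 of each pathway list, *Rxra*, *Rxrb*, genes nearest each limit and the 3 farthest on the other side in library 4 in each direction. The members, lists, groups of function and marker lists were chosen with earlier results of these data known. Results on some items are not reported here.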

Additional observations from a re-analysis of the deposited data

Results flagged for a closer look

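Among 48 named genes, the log2 values of the 4 control mAM and of the 4 RXR-deficient mAM libraries were examined for a library far from the other 3, and 7 of 96 groups had a gap to the nearest library, as a share of the whole range, above the critical value of Dixon's test. Chance gives about 5% of groups of genes not chosen by their values. Here the genes were chosen for the distance of libraries 1 to 3 from the controls, and Gm20458 and Morf4l1-ps1 also for that of library 4, so that rate cannot be set against the 7. Library 4 of the RXR-deficient mAMs was the one apart in 4 of the 7. It was the lowest for *Zfp595* (gap 0.841 of the range, 10.4 CPM against 19.2 to 21.6) and Morf4l1-ps1 (0.850, 27.6 against 65.7 to 76.7), and the highest for *Crlf2* (0.845, 102 against 50.1 to 55.9) and Gm20458 (0.956, 9.003 against 0.0212 to 0.0277). Among control mAMs, library 1 was the highest for *Carf* (0.892, 10.2 against 7.46 to 7.71) and *Kcne3* (0.919, 12.7 against 10.5 to 10.6), and library 4 was the lowest for *Tcaf1* (0.881, 51.9 against 58.6 to 59.6).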

How the results depend on the processing

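The set of 129 (52 higher, 77 lower, 56 with library 4 on the same side) stayed within 1.5 times these counts with 0.5 or 1 CPM added, a floor of 10 CPM, quantile normalization, scaling by median ratios or by library size alone. With no floor library 4 was on the same side in 85 of 179 genes. A size of 1.5-fold left 38 (12, 26, 18 on the same side). An ImmAM limit of 0.2 left 81 (37, 44, 34), and no limit gave 695 (329, 366, 496). A limma adjusted p in place of no overlap gave 52 (16, 36, 30), and all 4 RXR-deficient mAM libraries gave 34 (14, 20). Removing the GC trend of each library, added after the data were seen, gave 61 (22, 39, 36), and GC and length trends 59 (20, 39, 36). Leaving out 1 library in turn gave 108 to 232 genes, 47 to 97 higher, 59 to 141 lower and 52 to 89 with library 4 on the same side. More than 1.5 times 129 were found without control library 1 (222), RXR-deficient library 1 (197) and library 2 (232).

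For library 4, 41 genes were called and 1 of the set. edgeR called 65, DESeq2 242 (4 of the set), limma without a variance trend 17 (0), with *Xist* as a covariate 90 (2), with the GC trend removed 68 and with both trends removed 72. With the replicate number as a block, 0 of the set and 28 genes were called; the deviations of same-numbered libraries of different groups correlated between -0.35 and 0.43 over genes, and the numbers were not taken as a pairing. Leaving out 1 library gave 33 to 111, with 1 to 3 of the set. There were 111 (3) without RXR-deficient library 2, 75 (1) without library 3 and 34 (2) without control library 2.

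For libraries 1 to 3, which the choice used, 624 genes (290 higher, 334 lower) and 51 of the set were called. DESeq2 called 1368 (95), limma without a variance trend 122 (76 higher, 11 of the set), the replicate block 174 (109 higher, 12 of the set) and, added after the data were seen, all 4 libraries as 1 group 337 (205 higher, 16 of the set). With the GC trend removed 22 of the set were called, and with both trends 24. Leaving out 1 library gave 162 to 861 genes and 16 to 72 of the set, with 220, 327 and 355 genes without control libraries 2, 3 and 4, 212 and 162 without RXR-deficient libraries 1 and 3, and 397 and 386 without ImmAM libraries 2 and 4. In ImmAMs 6194 genes and 8 of the set were called, with 5 of the set in limma-voom, with quantile normalization and with *Xist* as a covariate, 4 without a variance trend, 13 with the GC trend removed and 18 with both trends removed. Leaving out 1 library gave 5027 to 6317 genes and 1 to 9 of the set, with 5 without control library 2, 3 or 4 or ImmAM library 3 and 1 without ImmAM library 2. With the block, 5686 genes and 6 of the set were called. The median GC content over the mean of transcripts was 42.5% for the higher and 57.2% for the lower genes. The cause of these changes was not tested. Of 642 log2 differences of 46 named genes under other settings, 620 moved by less than 1 SD between replicates in libraries 1 to 3. In library 4, 635 of 642 did so. Reversals were counted only for libraries 1 to 3, whose direction the choice had fixed, and for *Tcaf1* in library 4. The 0 found is therefore not read as a result. Library 4 differences near 0 did change sign when 1 library was left out, as in *Tgfb1* (-0.105 to 0.010) and *Rrp9* (-0.046 to 0.153). Depth limits the 3 genes of the set with fewer than 100 reads per library.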
